A study of Homo sapiens with 48 samples.

Results

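The late response of T47D-YA-IRS-1 clone #10 to IGF-I was measured as the 3 arrays of this clone after 24 h with IGF-I against its 3 arrays after 24 h in SFM, 6 of the 48 arrays of the series. The arrays were chosen by their labels alone, and all 54613 probe sets that are not Affymetrix controls were compared. T47D is a luminal breast cancer cell line, and its T47D-YA variant was described by the study as lacking IRS adaptor proteins while retaining a functional IGF-1R. The series holds 4 sublines of T47D-YA at 4 h and 24 h with IGF-I or in SFM, with 3 arrays in each of its 16 groups. Clones #10 and #20 are labelled as carrying IRS-1, while clones #1 and #6 are labelled as carrying IRS-2. Cells of all groups carried the transferred IRS under selection, spent 24 h without serum in SFM, and then received SFM+FN, with IGF-I in the IGF-I groups and alone in the groups called SFM. IRS-1 #10 is a single clone, and T47D-YA cells without a transferred IRS were not analysed here. Nothing in the labels says whether the 3 arrays of a group came from separate cultures, so the p-values measure only the spread between arrays within groups, which may be technical. That spread was estimated over all 16 groups. RNA was isolated with either of a pair of kits, and which array had which is not given in the sources used here, so its part in the results was not tested.

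IGF-I is a secreted growth factor that activates the receptor tyrosine kinase IGF-1R, which phosphorylates the IRS adaptor proteins. Phosphorylated IRS-1 recruits PI3K and Grb2, which feed the AKT and mTOR kinases and the RAS and ERK kinases. AKT keeps the FOXO transcription factors out of the nucleus, mTOR complex 1 favours protein synthesis and the translation of the transcription factor ATF4, and ERK induces the early response genes and cyclin D1. Cyclin-dependent kinases then release the E2F factors that switch on the genes of DNA replication, and the genes of mitosis follow through promoter elements bound by B-MYB and FOXM1 complexes. In luminal breast cancer cells IGF-I is known as a mitogen.

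The 6 arrays had medians between 7.44 and 7.48 on the log2 scale, and replicates correlated with each other at 0.9964 to 0.9976 over probe sets, against at most 0.9958 between an IGF-I and an SFM array. The 3-prime minus 5-prime difference of the ACTB control probe sets was 0.207 ± 0.030 in the IGF-I arrays and 0.232 ± 0.024 in the SFM arrays (log2, SD, n = 3 each, exact permutation test, two-sided, p = 0.3, with 0.1 the smallest p possible). The 12 luminal markers measured, among them KRT8, KRT18, ESR1 and FOXA1, had a median level of 13.07 in IGF-I arrays and 13.18 in SFM arrays, at the 99.1th percentile of all genes, and 0 of them were called, with GATA3 (-0.14) and XBP1 (-0.18) lower at the adjusted p. TFF1 was the lowest, at 7.04 in IGF-I arrays and 7.13 in SFM arrays. The marker lists of basal cells, fibroblasts, endothelium and leukocytes had medians of 6.36 to 7.70 in IGF-I arrays, with 0 of their 20 members past the adjusted p. In bulk RNA, a change in the number of cells of a kind and a change in RNA per cell cannot be told apart. The IRS probe sets did not follow the clone labels. IRS1 probe set 204686_at was at 5.37 ± 0.11 in IGF-I arrays and 5.52 ± 0.15 in SFM arrays of IRS-1 #10, whereas the clone labelled IRS-2 #1 had 8.36 ± 0.05 in IGF-I arrays and 8.50 ± 0.07 in SFM arrays (SD, n = 3 each). Whether it lies in the transferred sequence is not given in the sources used here, so IRS-1 #10 is the clone labelled so, throughout. IGF1R, the receptor gene, was at 9.83 ± 0.10 in IGF-I arrays and 9.85 ± 0.08 in SFM arrays (probe set 203627_at). SFM arrays of the other clones at 24 h were higher, at 10.56 ± 0.03 in #20, 10.36 ± 0.03 in #1 and 10.64 ± 0.10 in #6. The dim IGF1R probe set 208441_at was at 5.82 in IRS-1 #10, against 5.94, 5.81 and 5.72 in these clones. Whether the receptor level bears on the responses was not tested.

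After 24 h, IGF-I raised genes of mitosis, DNA replication and amino acid supply in IRS-1 #10 and lowered a more scattered set, by mostly small amounts. Differences are given as IGF-I minus SFM on the log2 scale, with the standard error of limma, and calls required both a p under 0.05 after Benjamini-Hochberg adjustment and a change of 1.5-fold or more. By this rule 137 probe sets were called, 68 higher and 69 lower, which is 0.251% of those tested. In all 137 the 3 IGF-I arrays and the 3 SFM arrays did not overlap, as was the case for 25.5% of all probe sets. Their median absolute difference was 0.64, 94 of them were under 1.6-fold and 6 reached 2-fold. The split was 81 higher and 47 lower without SFM replicate C, and 42 higher and 26 lower after normexp background subtraction. With the adjusted p alone 4375 probe sets passed (8.01%), 1626 higher and 2749 lower, of which 4238 were under 1.5-fold. The median level over all arrays was 9.69 for probe sets called higher and 7.85 for those called lower, against 7.46 over all probe sets. For genes, the probe set of highest mean over all arrays was taken, which gave 39 genes called higher (0.197% of 19775 genes) and 20 called lower (0.101%), and 869 higher (4.39%) and 1316 lower (6.65%) by the adjusted p alone. Among genes at the threshold, KIF18B, SLC39A10, MTHFD2, DEPDC1B, KIF23 and FBXO5 lay just inside 1.5-fold, while CEP55, ACOT6, ABCG1, TCF19, STC2 and UBE2T lay just outside it. Of the 59 called genes 31 stayed called whichever of the 6 arrays was left out. The direction turned in 0 of the 59 under any alternative. With an array left out it could not turn, since the groups of called probe sets did not overlap. When all probe sets of a gene were averaged in place of taking the brightest, 27 of the 59 calls were lost, and 28 were lost with normexp.

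**Figure D1:**
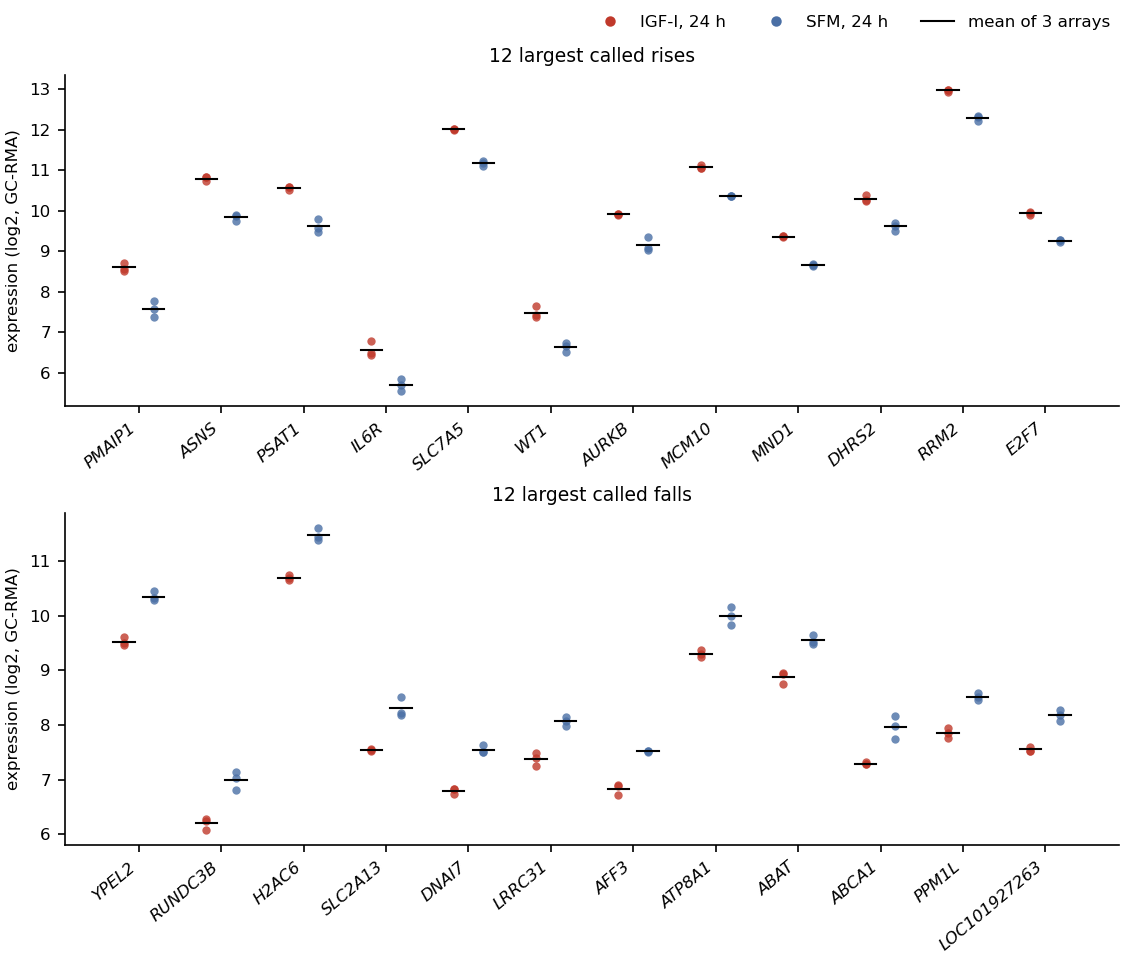
Expression of the 12 genes with the largest called rises (top) and the 12 with the largest called falls (bottom) in each array of IRS-1 #10 at 24 h, on the log2 scale of GC-RMA, with IGF-I left of SFM and a line at the mean of 3 arrays. Rises lay between 0.67 for E2F7 and 1.03 for PMAIP1, and falls between -0.63 for LOC101927263 and -0.83 for YPEL2. In none of the 24 genes did the groups overlap, as was the case for 25.5% of all probe sets.

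Genes of mitosis moved together upward. Of 61 genes of the mitosis list, 58 were higher at the adjusted p and 0 lower, against 4.39% and 6.65% of all genes, and 10 were called. The median of the list was 0.49, and SGO1, ECT2 and CKAP2 did not pass. All 61 genes were positive, against 10299 of all 19775 genes. All 61 were without overlap between the groups, against 25.5% of all probe sets in either direction. AURKB, the kinase of the chromosomal passenger complex, was at 9.90, 9.92 and 9.93 in the IGF-I arrays and at 9.04, 9.35 and 9.10 in the SFM arrays. The IGF-I arrays lay close together and above all SFM arrays, and the difference of 0.75 ± 0.07 was the largest of the list (adjusted p = 4.8e-11). CCNA2, the cyclin of S and G2 phase, was at 10.92, 10.80 and 10.79 in the IGF-I arrays and at 10.10, 10.18 and 10.24 in the SFM arrays (0.66 ± 0.05). FAM83D, which carries a kinase to the spindle, was at 11.66, 11.66 and 11.60 in the IGF-I arrays against 10.93, 10.99 and 11.04 in the SFM arrays (0.65 ± 0.04, adjusted p = 3.6e-16). Both were separated by more than the range within either group. PLK1, a kinase of mitotic entry and spindle assembly, was at 10.34, 10.14 and 10.09 in the IGF-I arrays and at 9.45, 9.69 and 9.52 in the SFM arrays, a difference of 0.64 ± 0.08 that was 0.56 without IGF-I replicate A. The kinetochore genes SKA1 and SPC25 rose by 0.64 and 0.63, CDCA3 by 0.64, the kinase MELK by 0.60, and the kinesins of cytokinesis KIF14 and KIF23 by 0.60 and 0.59. Of these, SKA1, SPC25, MELK, KIF14 and KIF23 were at 0.56 to 0.58, under the fold threshold, when 1 array was left out (SKA1 without SFM replicate A, SPC25 without IGF-I replicate A, MELK without IGF-I replicate C or SFM replicate A, KIF14 without IGF-I replicate B or SFM replicate A, KIF23 without IGF-I or SFM replicate B). Under 1.5-fold were also AURKB (0.55), CCNA2 (0.58), CDCA3 (0.55) and KIF23 (0.49) averaged over their probe sets, SKA1 (0.53), KIF14 (0.57) and KIF23 (0.57) with normexp, and MELK (0.58), KIF14 (0.58) and KIF23 (0.57) with median centring. Just under the threshold were TACC3 with 0.56, PRC1 with 0.55, the kinetochore gene NDC80 with 0.55 and the ubiquitin-conjugating enzyme of the anaphase-promoting complex UBE2C with 0.55. FOXM1, the forkhead factor that drives these genes, rose by 0.56 and MYBL2, which encodes B-MYB, by 0.52.

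The proximal promoters of several of these genes hold the letters of a CHR element near those of a CCAAT box. ESPL1, which encodes separase, had probe set 204817_at called at 0.60 (adjusted p = 2.1e-10) and 0.56 by its brightest. The stretches below show this arrangement in 3 other genes called in the comparison, PLK1, KIF23 and CDCA3, and in ESPL1, and are credited to RefSeq, build GRCh38.p14. Capitals mark the CHR letters TTTGAA and the CCAAT letters CCAAT, which read ATTGG on the other strand.
PLK1 promoter, chr16:23678809-23678878, plus strand: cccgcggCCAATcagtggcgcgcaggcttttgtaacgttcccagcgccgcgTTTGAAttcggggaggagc
ESPL1 promoter, chr12:53268219-53268288, plus strand: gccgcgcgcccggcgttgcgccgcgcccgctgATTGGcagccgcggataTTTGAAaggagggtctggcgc
KIF23 promoter, chr15:69414269-69414338, plus strand: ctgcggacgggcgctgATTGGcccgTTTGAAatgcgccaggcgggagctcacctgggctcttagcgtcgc
CDCA3 promoter, chr12:6851267-6851336, minus strand: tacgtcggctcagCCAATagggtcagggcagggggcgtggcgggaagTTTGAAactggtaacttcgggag
Over windows of 250 bases before to 50 after the start, searched on both strands for TTTGAA or TTCGAA, 68.6% of the 51 promoters of the mitosis list held a CHR match, against 13.3% of 15382 promoters of genes on the array. The same share, 68.6%, held CCAAT, against 36.1% of all promoters. A match is a description of the letters and not of binding.

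Genes of DNA replication rose alongside. Of the 42 genes measured in the DNA replication list, 37 were higher at the adjusted p (88.1%, against 4.39% of all genes) and 0 lower. Of the list 6 were called, and the median was 0.40. MCM10, which helps to activate the replicative helicase, was at 11.13, 11.05 and 11.07 in the IGF-I arrays and at 10.36 in each of the SFM arrays (0.72 ± 0.05, adjusted p = 3.1e-15). RRM2, the small subunit of ribonucleotide reductase that supplies deoxynucleotides, was at 12.99, 12.95 and 12.99 in the IGF-I arrays and at 12.23, 12.31 and 12.35 in the SFM arrays (0.68 ± 0.04, adjusted p = 1.9e-17). In both genes the gap between the groups was many times the range of the IGF-I arrays. CDC45, a component of the helicase, was at 10.13, 10.07 and 10.05 in the IGF-I arrays and at 9.39, 9.44 and 9.46 in the SFM arrays (0.65 ± 0.06). The origin licensing genes ORC1 and CDC6 rose by 0.62 and 0.60 and POLA2, a subunit of the primase complex, by 0.62. ORC1 was at 0.56 without IGF-I replicate A and 0.51 without SFM replicate A, and CDC6 at 0.58 without IGF-I replicate A. POLA2 was at 0.35 averaged over its probe sets, ORC1 at 0.54 and CDC6 at 0.58 with normexp, and CDC6 at 0.58 with median centring, all under 1.5-fold. UHRF1, which maintains DNA methylation at the replication fork, rose by 0.57, ORC6 by 0.52, and MCM2 and GINS1, both of the helicase, by 0.51 each. MND1, a recombination gene of meiosis that stood outside the lists, was at 9.37, 9.37 and 9.36 in the IGF-I arrays and at 8.66, 8.69 and 8.65 in the SFM arrays (0.70 ± 0.11, adjusted p = 6.8e-06). The arrays of each group were nearly identical and the groups far apart.

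Most regulators of the G1/S transition had positive differences, 23 of 29 genes in that list, against 10299 of all 19775 genes. At the adjusted p 15 were higher (51.7%, against 4.39% of all genes) and 2 were lower (6.90%, against 6.65%). The list had 1 called gene and a median of 0.23. E2F7, an E2F family repressor, was at 9.94, 9.98 and 9.90 in the IGF-I arrays and at 9.29, 9.23 and 9.28 in the SFM arrays (0.67 ± 0.06, adjusted p = 9.5e-12). Averaged over its probe sets the difference was 0.45 and was not called. E2F1 rose by 0.54, E2F8 by 0.53 and CCNE2, the cyclin that starts S phase, by 0.53. CDKN1C, which encodes a cyclin-dependent kinase inhibitor and was picked out after its value was seen, had the lowest difference of the list, -0.50 ± 0.08. CCND1, a direct target of growth factor signalling, was at 8.996, 8.944 and 8.892 in the IGF-I arrays and at 8.730, 8.783 and 8.751 in the SFM arrays, which did not overlap but did not pass the test (0.19 ± 0.07, adjusted p = 0.087). Stretches from 4 promoters of genes that rose are shown for their E2F letters, TTTCGCGC or TTTGGCGC and their reverse complements, in capitals, beside ATTGG where CDC25A holds it. CDC25A, the phosphatase that activates the kinases of S phase, had 1 of 3 probe sets called, at 0.62, and 0.49 by its brightest.
POLA2 promoter, chr11:65261892-65261941, plus strand: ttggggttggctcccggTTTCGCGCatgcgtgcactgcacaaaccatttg
MND1 promoter, chr4:153344628-153344677, plus strand: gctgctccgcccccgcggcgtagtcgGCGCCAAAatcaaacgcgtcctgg
CDC25A promoter, chr3:48188438-48188487, minus strand: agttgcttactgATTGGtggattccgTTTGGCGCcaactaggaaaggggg
CDC6 promoter, chr17:40287859-40287908, plus strand: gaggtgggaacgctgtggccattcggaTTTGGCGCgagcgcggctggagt
Of 35 promoters of the DNA replication list 25.7% held these letters, against 1.55% of all promoters, whereas 5.71% of them held a CHR match.

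Some clustered histone genes were lower. Of the 19 measured, 8 were lower at the adjusted p, against 6.65% of all genes, 1 was higher and 2 were called, both lower, with a median of -0.12. H2AC6, an H2A gene, was at 10.75, 10.64 and 10.68 in the IGF-I arrays and at 11.38, 11.44 and 11.60 in the SFM arrays (-0.78 ± 0.06, adjusted p = 2.9e-13). H4C8 was at 8.32, 8.39 and 8.18 in the IGF-I arrays and at 8.75, 8.83 and 9.14 in the SFM arrays (-0.61 ± 0.09), with -0.56 without IGF-I replicate C, -0.50 without SFM replicate C, -0.53 averaged over its probe sets and -0.56 with normexp. In both the SFM arrays lay above every IGF-I array, replicate C of SFM being the highest. H2BC4 and H2BC21 had differences of -0.45 each, H2AC8 one of -0.41 and H2BC5 one of -0.38, all past the adjusted p. The transcripts of these genes in S phase mostly lack a poly(A) tail, and their family members are near-identical in sequence, so a probe set may read several of them.

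Genes of amino acid uptake and synthesis gave some of the largest rises. ASNS, asparagine synthetase, was at 10.83, 10.74 and 10.83 in the IGF-I arrays and at 9.76, 9.89 and 9.88 in the SFM arrays (0.96 ± 0.05, adjusted p = 1.1e-17). Averaged over its probe sets the difference was 0.55 and was not called. PSAT1, which makes phosphoserine, was at 10.53, 10.60 and 10.60 in the IGF-I arrays and at 9.48, 9.57 and 9.81 in the SFM arrays (0.95 ± 0.07, adjusted p = 4.1e-15). SLC7A5, the transporter of large neutral amino acids such as leucine, was at 12.016, 12.030 and 12.004 in the IGF-I arrays and at 11.116, 11.173 and 11.223 in the SFM arrays (0.85 ± 0.05, adjusted p = 2.7e-17). In each of these 3 genes the groups were far apart and the IGF-I arrays lay closer together than the SFM arrays. SLC7A11, the cystine importer, had the largest differences on the array by a pair of probe sets picked out after their values were seen. Its probe set 217678_at was at 7.95, 7.99 and 8.05 in the IGF-I arrays and at 6.50, 6.51 and 6.36 in the SFM arrays (1.54 ± 0.10, adjusted p = 2.8e-15), and 209921_at was at 8.46, 8.44 and 8.32 in the IGF-I arrays and at 7.03, 6.77 and 6.83 in the SFM arrays (1.53 ± 0.10). The brightest SLC7A11 probe set, 207528_s_at, gave 0.47 ± 0.08, so the probe sets agreed in direction and differed in size.

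Among the 22 amino acid transporters 6 were higher (27.3%, against 4.39% of all genes), 2 lower (9.09%, against 6.65%) and 3 called. Their median was 0.06, so the rise was that of some members. Besides SLC7A5, those called were the neutral amino acid carrier SLC1A4 (0.66) and the cationic amino acid transporter SLC7A1 (0.61), which were at 0.44 and 0.39, under 1.5-fold, averaged over their probe sets. The glutamine carrier SLC1A5 rose by 0.45, SLC3A2, the heavy chain partner of SLC7A5 and SLC7A11, by 0.22, and SLC7A2, a second cationic transporter, fell by 0.41. Of 23 enzymes of amino acid and one-carbon metabolism 11 were higher (47.8%), 1 was lower (4.35%) and 3 were called, with a median of 0.18. MTHFD2, a mitochondrial folate enzyme, was at 12.24, 12.21 and 12.18 in the IGF-I arrays and at 11.54, 11.69 and 11.64 in the SFM arrays (0.59 ± 0.04), with 0.57 without IGF-I replicate A and 0.55 without SFM replicate A. It was at 0.39 averaged over its probe sets, 0.58 with normexp and 0.57 with median centring, and was called in none of these. CBS rose by 0.57, PSPH, the last step of serine synthesis, by 0.47, SHMT2 by 0.41 and PCK2 by 0.39. Of 17 aminoacyl-tRNA synthetases, which charge tRNAs, 7 were higher (41.2%) and 0 lower, with YARS1 at 0.53, AARS1 at 0.39, and TARS1 and GARS1 at 0.37 each, and 0 were called.

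Many of these genes are known targets of ATF4. In the list of ATF4 and its pathway regulators 13 of 24 genes were higher (54.2%, against 4.39% of all genes). In that list 1 was lower (4.17%, against 6.65%) and 1 was called, with a median of 0.22. INHBE, a subunit of activin E, was at 5.89, 5.61 and 5.91 in the IGF-I arrays and at 4.98, 5.25 and 5.18 in the SFM arrays (0.67 ± 0.11, adjusted p = 1.3e-05), all at the dim end of the scale, and the difference was 0.35, with the call lost, with normexp. STC2 rose by 0.58, the pseudokinase TRIB3 by 0.48, the glutathione-degrading enzyme CHAC1 by 0.48 and the stress cytokine GDF15 by 0.45. DDIT3, which encodes the stress factor CHOP, was at 9.82, 9.75 and 9.83 in the IGF-I arrays and at 9.69, 9.71 and 9.70 in the SFM arrays and did not pass the test (0.10 ± 0.07, adjusted p = 0.45). The 5 stretches below show the composite ATF4 and C/EBP element in genes of 4 of these groups (enzyme, transporter, regulator, synthetase). Capitals mark TGATGNAAN or its reverse complement.
ASNS promoter, chr7:97872449-97872498, minus strand: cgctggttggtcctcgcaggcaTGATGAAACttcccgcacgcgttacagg
SLC7A1 promoter, chr13:29595659-29595708, minus strand: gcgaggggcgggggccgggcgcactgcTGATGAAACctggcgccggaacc
CHAC1 promoter, chr15:40953241-40953290, plus strand: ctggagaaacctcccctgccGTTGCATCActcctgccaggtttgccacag
AARS1 promoter, chr16:70289667-70289716, minus strand: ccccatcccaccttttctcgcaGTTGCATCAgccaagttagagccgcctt
TARS1 promoter, chr5:33440945-33440994, plus strand: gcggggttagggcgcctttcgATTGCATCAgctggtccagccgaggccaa
These letters stood in 35.7% of 14 synthetase promoters, 23.5% of 17 enzyme promoters, 21.1% of 19 transporter promoters and 15% of 20 promoters of the regulators, against 2.62% of all promoters.

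**Figure D2:**
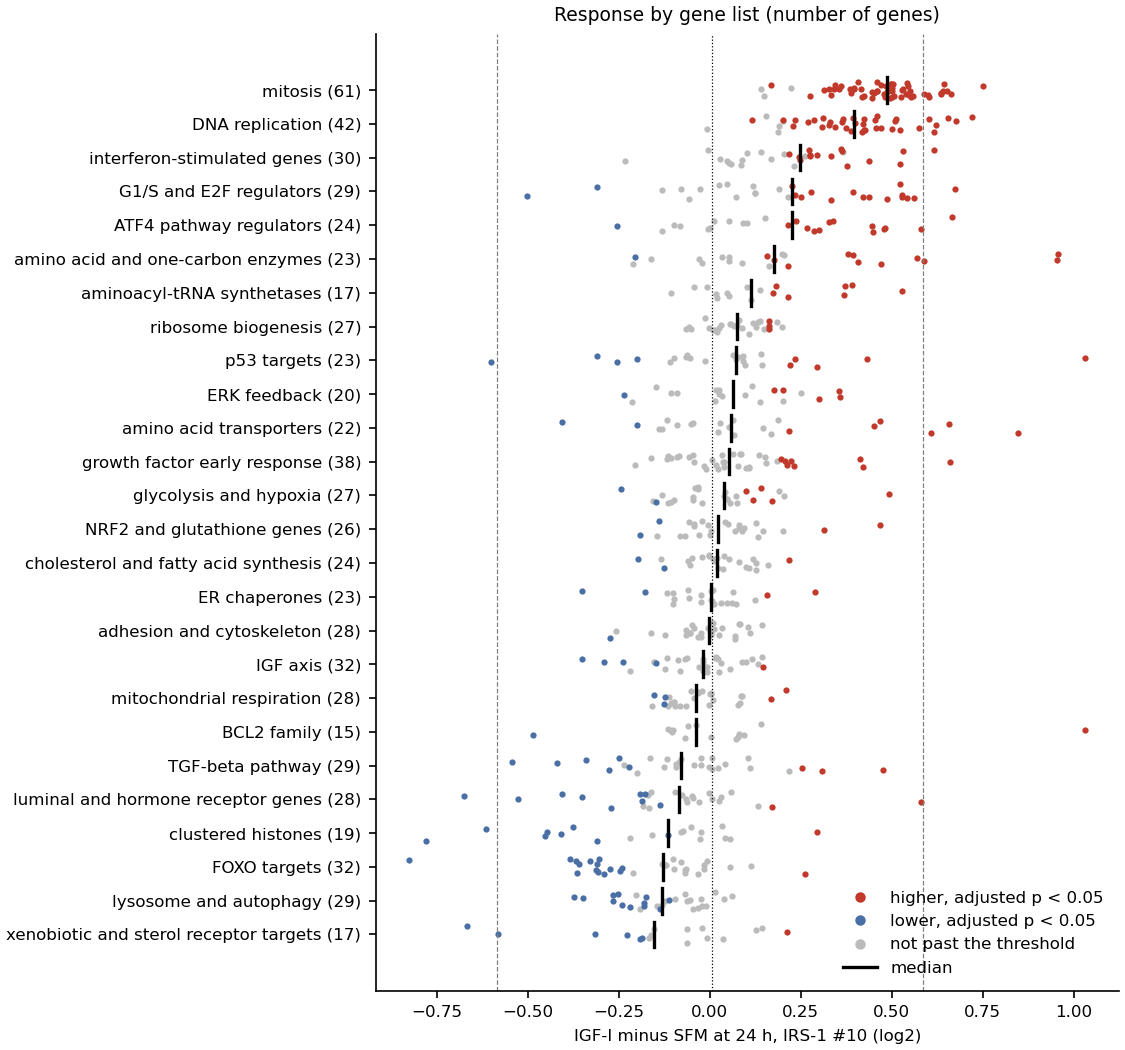
Difference between IGF-I and SFM at 24 h in IRS-1 #10 (log2) for every measured gene of 26 lists, coloured where the adjusted p of limma was under 0.05, with a bar at each list's median, dashed lines at 1.5-fold and a dotted line at the median of all genes. Mitosis (0.49) and DNA replication (0.40) had the highest medians, and the xenobiotic and sterol receptor targets (-0.15), the lysosome and autophagy genes (-0.13) and the FOXO targets (-0.13) the lowest.

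The largest rise of a gene by its brightest probe set was that of PMAIP1, which encodes the BH3-only protein NOXA, an inhibitor of MCL1. It was at 8.58, 8.72 and 8.52 in the IGF-I arrays and at 7.57, 7.38 and 7.77 in the SFM arrays (1.03 ± 0.10, 2.04-fold, adjusted p = 2.1e-10). Every IGF-I array lay above the SFM arrays by more than the spread of either group. Of 15 genes of the BCL2 family 1 was higher and 1 was lower, namely BIK, another BH3-only gene, with -0.49. These shares, 6.67% each, were near those of all genes, 4.39% and 6.65%. PMAIP1 is also a p53 target, and of 23 p53 targets 5 were higher (21.7%) and 4 lower (17.4%), with 1 called each way. FAS rose by 0.43 and AEN by 0.30, whereas TP53INP1, a stress protein, was at 11.56, 11.66 and 11.59 in the IGF-I arrays and at 12.19, 12.17 and 12.25 in the SFM arrays (-0.60 ± 0.05), with -0.58 without IGF-I replicate A or SFM replicate C. It lost the call also at -0.33 averaged over its probe sets and at -0.58 with quantile normalization. ZMAT3 had -0.31 and CCNG1 had -0.25.

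Other single genes rose by similar amounts. IL6R, the interleukin-6 receptor, was at 6.78, 6.50 and 6.43 in the IGF-I arrays and at 5.71, 5.85 and 5.56 in the SFM arrays (0.86 ± 0.14, adjusted p = 1.6e-05), and its other probe sets gave 0.31 and 0.21. WT1, a zinc finger transcription factor, was at 7.43, 7.39 and 7.66 in the IGF-I arrays and at 6.75, 6.52 and 6.67 in the SFM arrays (0.84 ± 0.10). DHRS2, a short-chain dehydrogenase, was at 10.38, 10.25 and 10.26 in the IGF-I arrays and at 9.50, 9.64 and 9.71 in the SFM arrays (0.68 ± 0.07). The groups were apart in all 3 genes, IL6R being the dimmest of them. Averaged over their probe sets all 3 lost the call, at 0.46 for IL6R, 0.58 for WT1 and 0.58 for DHRS2, and IL6R lost it with normexp, at 0.55.

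Interferon-stimulated genes rose in part. Of 30 measured, 15 were higher (50%, against 4.39% of all genes) and 0 lower (against 6.65%). GBP1, a guanylate-binding GTPase, was the 1 called member. GBP1 was at 9.59, 9.65 and 9.73 in the IGF-I arrays and at 9.02, 8.90 and 9.19 in the SFM arrays (0.62 ± 0.09), with 0.58 without IGF-I replicate C, 0.55 without SFM replicate B, 0.42 averaged over its probe sets and 0.58 with normexp, all under 1.5-fold. The median of the list was 0.25, USP18 rose by 0.53, IFIT3 by 0.52 (its probe set 204747_at was called at 0.62), the chemokine CXCL10 by 0.44 and IFIT2 by 0.38. RSAD2, an antiviral enzyme outside the list that was picked out after its values were seen, had a pair of probe sets called at 0.63 and 0.61. The brighter of the pair lost its call without IGF-I replicate C or SFM replicate A, down to 0.54. Relative to the SFM mean, the median of the interferon list was 0.21, 0.19 and 0.30 in IGF-I replicates A, B and C. Among the growth factor early response genes 8 of 38 were higher (21.1%), 0 were lower and 1 was called, with a median of 0.05. That gene was CCL2, a monocyte chemokine, at 10.16, 10.16 and 10.24 in the IGF-I arrays and at 9.54, 9.52 and 9.51 in the SFM arrays (0.66 ± 0.08, adjusted p = 8.9e-09). ODC1, which makes polyamines, rose by 0.42, the EGFR ligand EREG by 0.41, CCN1 by 0.23 and TNFRSF12A, the TWEAK receptor, by 0.22. Of 20 genes of ERK feedback 5 were higher (25%) and 1 was lower (5%), with ETV5 at 0.36, the phosphatases DUSP4 and DUSP6 at 0.35 and 0.30, and LRIG1, which restrains receptor kinases, at -0.24.

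Among the falls, the largest by brightest probe set was that of YPEL2, a member of the yippee-like family listed among the FOXO targets. YPEL2 was at 9.46, 9.61 and 9.50 in the IGF-I arrays and at 10.29, 10.32 and 10.44 in the SFM arrays (-0.83 ± 0.07, adjusted p = 1.6e-12). Averaged over its probe sets it was at -0.39, and the call was lost. Of 32 FOXO targets 14 were lower (43.8%, against 6.65% of all genes) and 1 was higher (3.1%, against 4.39%), with a median of -0.13. YPEL2 was the 1 called by its brightest probe set. CCNG2, a cyclin linked to cell cycle exit, had -0.39 by its brightest probe set and a call at -0.64 ± 0.06 by 228081_at (adjusted p = 1.3e-11), the receptor gene ERBB3 and the MYC antagonist MXI1 -0.37 each, and FOXO3 itself -0.36. KLHL24, an adaptor of ubiquitin ligases, was picked out after its values were seen, since 4 of its 5 probe sets were called. Probe set 242088_at of KLHL24 was at 5.87, 6.01 and 5.95 in the IGF-I arrays and at 7.20, 7.17 and 7.35 in the SFM arrays (-1.29 ± 0.12), and 226158_at was at 7.24, 7.48 and 7.32 in the IGF-I arrays and at 8.66, 8.45 and 8.73 in the SFM arrays (-1.27 ± 0.11). The brightest KLHL24 probe set, 206551_x_at, had -0.13 and did not pass (adjusted p = 0.52). CREBRF, a regulator of the CREB3 factors, had 1 of 5 probe sets called, at -0.68, and values of -0.07 to -0.54 in the rest. Of 29 lysosome and autophagy genes 12 were lower (41.4%) and 0 higher, with a median of -0.13 and 0 called. WIPI1, an early autophagy protein, had -0.37, the lysosomal growth factor gene GRN -0.35, and MAP1LC3B and GABARAPL1 of the autophagosome membrane -0.27 each.

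Single genes of lipid export and hormone response were lower, while most members of their lists did not pass. ABCA1, the cholesterol exporter induced by oxysterol receptors, was at 7.28, 7.32 and 7.28 in the IGF-I arrays and at 7.74, 8.16 and 7.99 in the SFM arrays (-0.67 ± 0.10, adjusted p = 3.2e-06), and at -0.57, under 1.5-fold, without SFM replicate B. Averaged over its probe sets it was at -0.24 and with normexp at -0.56, and both ended the call. Its relative ABCG1 had -0.58. Of 17 xenobiotic and sterol receptor targets 6 were lower (35.3%, against 6.65% of all genes) and 1 was higher (5.88%, against 4.39%). ABAT, which degrades GABA, was at 8.93, 8.96 and 8.74 in the IGF-I arrays and at 9.49, 9.53 and 9.65 in the SFM arrays (-0.68 ± 0.08, and -0.53 averaged over its probe sets, where the call was lost). It was the 1 called gene among 28 luminal and hormone receptor genes, of which 9 were lower (32.1%) and 2 higher (7.14%). The oestrogen-induced gene GREB1 had -0.53 and MYB had -0.41, while STC2 was higher. PGR, the progesterone receptor gene, had probe sets that differed. Probe set 228554_at of PGR was at 7.74, 7.86 and 8.13 in the IGF-I arrays and at 8.56, 8.52 and 8.41 in the SFM arrays (-0.59 ± 0.10), and the bright 208305_at was at 12.64, 12.58 and 12.60 in the IGF-I arrays and at 12.52, 12.53 and 12.59 in the SFM arrays (0.06 ± 0.05, adjusted p = 0.56). BAMBI, a decoy receptor of the TGF-beta pathway, had -0.54 and PMEPA1 had -0.42, and of 29 genes of this pathway 6 were lower (20.7%) and 3 higher (10.3%).

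Other genes called lower belong to no list. RUNDC3B, of unclear function, was at 6.24, 6.29 and 6.09 in the IGF-I arrays and at 7.15, 6.81 and 7.03 in the SFM arrays (-0.79 ± 0.10). SLC2A13, a transporter of myo-inositol, was at 7.56, 7.53 and 7.52 in the IGF-I arrays and at 8.22, 8.18 and 8.51 in the SFM arrays (-0.76 ± 0.12). ATP8A1, which flips phospholipids across membranes, was at 9.30, 9.37 and 9.25 in the IGF-I arrays and at 10.00, 9.83 and 10.16 in the SFM arrays (-0.69 ± 0.09). In these 3 genes the SFM arrays spread more widely than the IGF-I arrays. DNAI7 had -0.75, LRRC31 -0.69, AFF3, a subunit of transcription elongation complexes, -0.69, the phosphatase PPM1L -0.66 and the non-coding LOC101927263 -0.63, the last of which was at -0.58 without SFM replicate C. Averaged over their probe sets AFF3 was at -0.22, PPM1L at -0.30, SLC2A13 at -0.33 and ATP8A1 at -0.41, and their calls were lost. With normexp the calls of AFF3 (-0.54), PPM1L (-0.58), RUNDC3B (-0.56), LRRC31 (-0.58) and LOC101927263 (-0.54) were lost. SKAP2, an adaptor of SRC kinases picked out after its values were seen, had 3 probe sets called at -0.63, -0.61 and -0.60, and its brightest gave -0.55.

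Several groups had small medians and no called gene. Of all genes 4.39% were higher and 6.65% lower at the adjusted p. Of 23 ER chaperone genes 2 were higher and 2 lower (8.70% each). Of 24 genes of cholesterol and fatty acid synthesis 1 was higher (4.17%) and 2 lower (8.33%). Of 28 genes of mitochondrial respiration 2 were higher (7.14%) and 3 lower (10.7%). Of 28 adhesion and cytoskeleton genes 0 were higher and 1 was lower (3.57%). Of 27 genes of glycolysis and hypoxia 5 were higher (18.5%) and 2 lower (7.41%), with PFKP at 0.49 and HK2 at -0.24. Of 27 ribosome biogenesis genes 3 were higher (11.1%) and 0 lower. In both lists the share of higher genes was above that of all genes. Of 26 NRF2 and glutathione genes 2 were higher and 2 lower (7.69% each). In these 7 lists 0 genes were called and the medians lay between -0.04 and 0.07. In the IGF axis list of 32 genes 1 was higher (3.1%) and 4 were lower (12.5%), with IGFBP5 at -0.35, RICTOR at -0.29 and TSC1 at -0.24. IRS1 had 0.14, IRS2 -0.12 and IGF1R -0.02, and none of the 3 passed. The growth factor genes TGFB2 and TGFB1 had -0.24 and -0.09, ADM, which encodes a vasodilator peptide, had -0.16, and CDKN2B, a kinase inhibitor gene, had -0.13, none of which passed the test (adjusted p = 0.14 to 0.68).

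To ask which changes belonged to the late time, the response at 24 h was set against that at 4 h by a contrast of limma. At 4 h 34 probe sets were called in IRS-1 #10 (0.0623%). The contrast called 153 probe sets (0.28%), 98 with a higher and 55 with a lower response at 24 h. With 1 array left out 83 to 124 had a higher response. Those with a lower one were 32 to 35 without 24 h SFM replicate C, 4 h IGF-I replicate B or 4 h SFM replicate B, and 83 to 107 without 24 h IGF-I replicate B, 24 h SFM replicate B, 4 h IGF-I replicate C or 4 h SFM replicate A. Mitosis and amino acid genes were among those with a higher response. AURKB was at 9.34, 9.15 and 9.24 in the IGF-I arrays and at 9.28, 9.42 and 9.37 in the SFM arrays at 4 h, which overlapped, and its response was 0.86 ± 0.10 higher at 24 h (adjusted p = 6.5e-08). ASNS was at 9.82, 9.90 and 9.80 in the IGF-I arrays and at 9.72, 9.68 and 9.72 in the SFM arrays at 4 h, with a response 0.82 ± 0.08 higher at 24 h. SLC7A5 was at 11.58, 11.60 and 11.63 in the IGF-I arrays and at 11.46, 11.64 and 11.63 in the SFM arrays at 4 h, and its response was 0.81 ± 0.07 higher at 24 h. For SLC7A5 the SFM arrays at 24 h were lower than those at 4 h and the IGF-I arrays higher, so both groups contribute to the difference. IL6R (0.89 ± 0.20), ESPL1 (0.78 ± 0.08) and CDC45 (0.76 ± 0.08) also had higher responses at 24 h. For IL6R the SFM arrays were at 6.09, 6.70 and 6.21 at 4 h and at 5.71, 5.85 and 5.56 at 24 h. Its IGF-I arrays at 24 h, at 6.78, 6.50 and 6.43, overlapped the SFM arrays at 4 h, so the lower SFM arrays at 24 h contribute to the difference. Over the 68 probe sets called higher, IGF-I arrays at 24 h exceeded SFM arrays at 4 h by a median of 0.63, and SFM arrays at 24 h differed from SFM arrays at 4 h by a median of -0.03. For the 69 called lower, these medians were -0.48 and 0.16. Of the 61 mitosis genes 1 was higher and 4 were lower at the adjusted p at 4 h, against 1.18% and 1.47% of all genes, with a median of -0.06.

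Lower responses at 24 h included early genes that were near the level of SFM arrays again. THBS1, a matrix glycoprotein, was at 9.11, 9.12 and 8.82 in the IGF-I arrays and at 8.39, 8.08 and 8.07 in the SFM arrays at 4 h, and at 8.32, 8.52 and 8.34 in the IGF-I arrays and at 8.26, 8.27 and 8.34 in the SFM arrays at 24 h (difference of responses -0.73 ± 0.15, adjusted p = 0.0019). NANOS1 (-0.75 ± 0.10) and RHOBTB1 (-0.72 ± 0.10) likewise had responses of 0.53 and 0.58 at 4 h and of -0.22 and -0.14 at 24 h. H4C8 (-0.72 ± 0.13), BAMBI (-0.70 ± 0.08) and AKR1C3, an aldo-keto reductase (-0.69 ± 0.14), differed because they were lower at 24 h, with responses of 0.09 to 0.15 at 4 h that did not pass. AKR1C3 was called at 24 h with -0.60, and with -0.51 without IGF-I replicate B and -0.54 without SFM replicate C it was under 1.5-fold, as it was with normexp, at -0.50. Its difference between times was -0.57 without SFM replicate B of 4 h. CCND1 and DUSP6 had responses of 0.79 and 0.81 at 4 h and of 0.19 and 0.30 at 24 h. CCL2 had 0.64 at 4 h and 0.66 at 24 h, GBP1 0.64 and 0.62, and YPEL2 -0.54 and -0.83. The 4 called KLHL24 probe sets had -0.94 to -1.31 at 4 h, so that these genes differed from SFM arrays at both times.

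**Figure D3:**
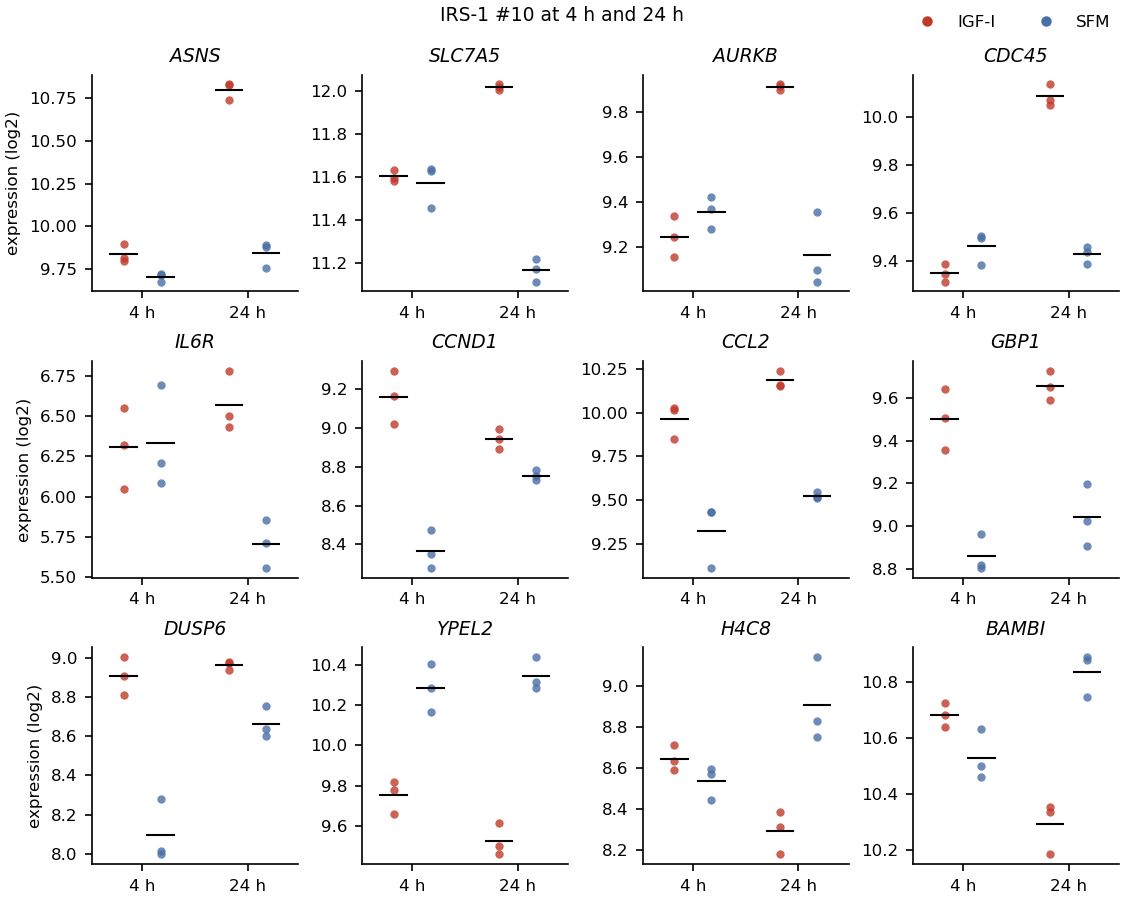
Expression of 12 genes in each array of IRS-1 #10 at 4 h and 24 h (log2), with IGF-I left of SFM at each time and a line at the mean of 3 arrays. AURKB, SLC7A5, CDC45 and IL6R had larger differences at 24 h than at 4 h. ASNS arrays did not overlap at either time, but its difference of 0.13 at 4 h did not pass (limma, adjusted p = 0.24), against 0.96 at 24 h. The difference of CCND1 was 0.79 at 4 h and 0.19 at 24 h, and those of CCL2, GBP1 and YPEL2 were present at both times.

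The same question was asked of the other clones at 24 h, with contrasts between responses. The probe sets called in IRS-1 #10 had been chosen for being large there, so smaller values elsewhere follow in part from the choice. At 24 h 137 probe sets were called in clone #20 (0.251%), 26 in clone #1 (0.0476%) and 43 in clone #6 (0.0787%), and these comparisons share no arrays with that of IRS-1 #10. The 68 probe sets called higher in IRS-1 #10 had a median of 0.65 there, against 0.46 in clone #20, 0.34 in clone #1 and 0.23 in clone #6, and of them 52 in clone #20, 43 in clone #1 and 30 in clone #6 were past the adjusted p upward. Of all probe sets, 4.92% were so in clone #20, 2.01% in clone #1 and 0.97% in clone #6. The 69 called lower had a median of -0.64 there, against -0.29 in clone #20, -0.33 in clone #1 and -0.44 in clone #6, and of them 34 in clone #20, 38 in clone #1 and 46 in clone #6 were past the adjusted p downward. Of all probe sets, 2.28% were so in clone #20, 1.15% in clone #1 and 2.87% in clone #6. Of the 137 probe sets 0 were past the adjusted p in the opposite direction in another clone at 24 h. Of the 61 mitosis genes 57 were higher at the adjusted p in clone #20, 56 in clone #1 and 37 in clone #6, against 7.46% of all genes in clone #20, 2.93% in clone #1 and 1.42% in clone #6.

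Between the 2 clones labelled IRS-1, 73 probe sets responded differently (0.134%), 10 higher and 63 lower in IRS-1 #10. The lower ones were led by stress genes of the ATF4 pathway. The response of INHBE was 0.67 in IRS-1 #10, against 3.39 in IRS-1 #20 (difference -2.72 ± 0.15, adjusted p = 4.0e-18), and that of GDF15 was 0.45 in IRS-1 #10, against 2.46 in IRS-1 #20 (-2.01 ± 0.11). KLHDC7B (-1.48 ± 0.12), the ER chaperone CLGN (-1.13 ± 0.16), DDIT3 (-0.97 ± 0.09) and the ER stress sensor ERN1 (-0.89 ± 0.12) also had lower responses, of which CLGN, DDIT3 and ERN1 did not pass in IRS-1 #10 itself. The ATF4 pathway regulators had a median of 0.22 and 1 called gene in IRS-1 #10, against 0.56 and 12 genes called higher in IRS-1 #20 (0.268% of all genes there). Some genes of amino acid supply also had lower responses. The differences of PSAT1 (-0.26), SLC7A5 (-0.13), SLC7A1 (-0.22), SLC1A4 (0.12) and MTHFD2 (-0.02) did not pass the adjusted p. The response of ASNS was 0.96 in IRS-1 #10, against 1.83 in IRS-1 #20 (-0.88 ± 0.08, adjusted p = 3.6e-11), and the SLC7A11 probe sets, picked out after their values were seen, differed by -0.80 ± 0.15 (217678_at) and -1.16 ± 0.14 (209921_at). Higher responses in IRS-1 #10 included CCL2 (0.66, against -0.12 in IRS-1 #20, difference 0.78 ± 0.11), UHRF1 (0.57, against -0.14, difference 0.72 ± 0.08) and CCNE2 (0.53, against -0.07, difference 0.60 ± 0.09). The zinc finger gene ZNF367 (0.65 ± 0.11), the potassium channel gene KCNC1 (0.65 ± 0.12) and THBS1 (0.64 ± 0.15) differed in the same direction. Leaving out 1 array ended the calls of KCNC1 (down to 0.57, IRS-1 #20 IGF-I replicate A or SFM replicate C), THBS1 (down to 0.56, IRS-1 #10 IGF-I replicate B, IRS-1 #20 IGF-I replicate A or SFM replicate B) and CCNE2 (down to 0.57, any of 5 arrays of both clones). The DNA replication list had a median of 0.40 in IRS-1 #10 and of 0.15 in IRS-1 #20, with 37 genes past the adjusted p upward in IRS-1 #10 (4.39% of all genes) and 17 in IRS-1 #20 (7.46%).

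Against the mean of the clones labelled IRS-2, 21 probe sets responded differently (0.0385%), 12 higher and 9 lower in IRS-1 #10, and 34 without SFM replicate B of IRS-1 #10. The error of this contrast holds no spread between clones. The response of ASNS was 0.96 in IRS-1 #10, against 0.06 in the mean of the IRS-2 clones (difference 0.89 ± 0.07, adjusted p = 4.7e-13). For PMAIP1 it was 1.03 in IRS-1 #10, against 0.29 in the IRS-2 clones (0.74 ± 0.12), and for PSAT1 0.95, against 0.31 (0.65 ± 0.08, and 0.57 without SFM replicate A of IRS-1 #10). SLC7A11 probe set 217678_at, picked out after its values were seen, had a difference of 1.25 ± 0.13. For the chemokines CCL20 (1.12 ± 0.16) and CXCL10 (0.72 ± 0.09) the responses were 0.36 and 0.44 in IRS-1 #10 and -0.75 and -0.28 in the IRS-2 clones, and RAB39B differed by 0.60 ± 0.14. Lower responses were those of SYTL5 (-0.68 ± 0.14), RUNDC3B (-0.62 ± 0.13), AKR1C3 (-0.60 ± 0.12) and the retinol-binding protein gene RBP7 (-0.60 ± 0.12). Without IGF-I replicate B of IRS-1 #10, RBP7 was at -0.44 and AKR1C3 at -0.52. The calls of SYTL5, RUNDC3B, AKR1C3 and RBP7 each ended without 1 or more of the arrays of IRS-1 #10 (SYTL5 and AKR1C3 without SFM replicate C, RUNDC3B without IGF-I replicate C or SFM replicate A, RBP7 without SFM replicate B or C), and that of RAB39B without any of 14 of the 18 arrays. CCL20, ASNS, PMAIP1 and CXCL10 stayed called without any single array.

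**Figure D4:**
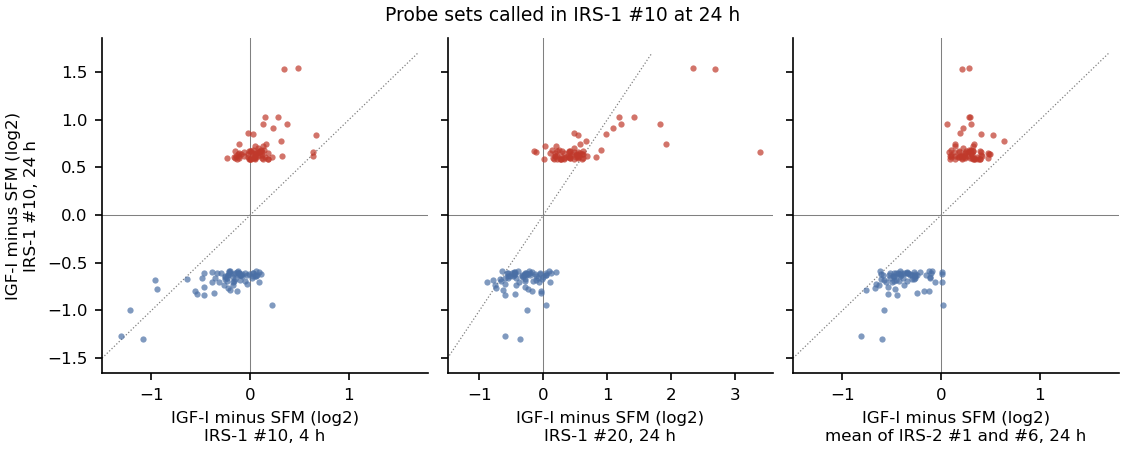
Difference between IGF-I and SFM (log2) of the 137 probe sets called in IRS-1 #10 at 24 h (vertical axis) against that of the same probe sets in IRS-1 #10 at 4 h, IRS-1 #20 at 24 h and the mean of the IRS-2 clones at 24 h (horizontal axes), red for called higher and blue for called lower, with a dotted line of equality. Medians of the probe sets called higher were 0.05 at 4 h and 0.46 in IRS-1 #20, and 3 of them, of SLC7A11 and INHBE, lay above 2 in IRS-1 #20.

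The promoters of all called genes were searched in the same way as the lists. Of 53 genes with a probe set called higher 46 had a promoter in RefSeq, and of 46 with one called lower 38 had. CHR letters stood in 32.6% of the promoters of genes called higher and in 13.2% of those called lower, against 13.3% of all. E2F letters stood in 15.2% of those called higher and 2.63% of those called lower, and CCAAT in 56.5% of those called higher and 50% of those called lower, against 36.1% of all. The composite ATF4 and C/EBP letters stood in 6.52% of those called higher and 2.63% of those called lower. The FOXO letters TGTTTAC or GTAAACA stood in 2.17% of those called higher and 0% of those called lower, against 2.62% of all promoters and 14.8% of 27 promoters of the FOXO target list. The E-box CACGTG, bound by MYC and TFE factors, stood in 6.52% of those called higher and 18.4% of those called lower, against 8.9% of all and 33.3% of 21 promoters of the lysosome and autophagy list. No test was made on these shares.

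**Figure D5:**
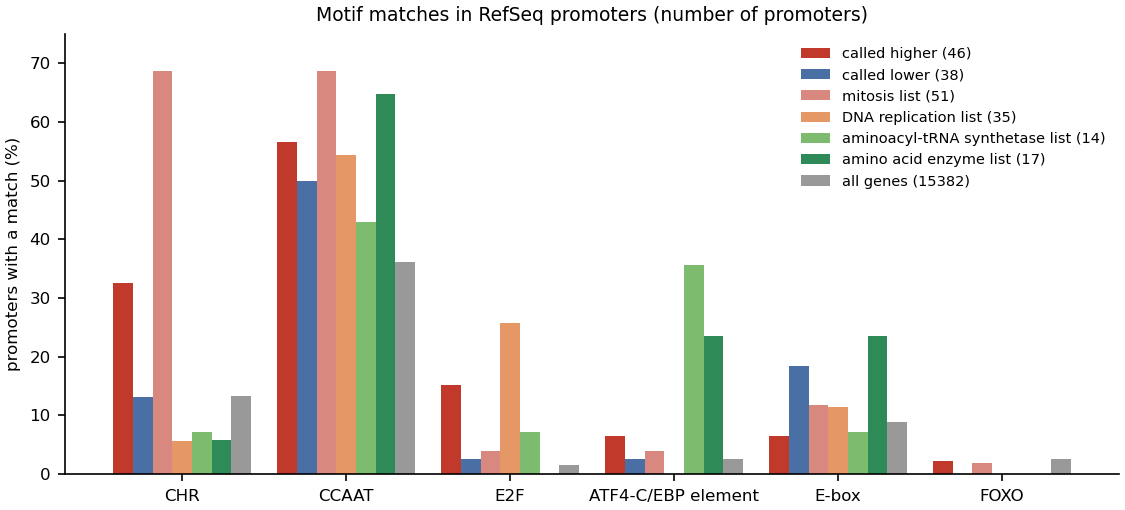
Share of RefSeq promoters (%) that hold each motif on either strand, for genes called higher, genes called lower, 4 gene lists and all genes, with the number of promoters in brackets. The CHR share was 68.6% in the mitosis list and 13.3% in all promoters, and the ATF4-C/EBP share was 35.7% in the synthetase list and 2.62% in all promoters.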

How the data were processed

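Gene expression of 48 arrays (16 groups of 3) was used, of which 6 make the comparison of IGF-I with SFM in IRS-1 #10 at 24 h. The log2 values were deposited by the authors as GC-RMA summaries of probe sets, made according to the methods in GeneData Refiner, and the submitters' notes name GCRMA without a version. The deposited values do not hold the normalization to untreated cells that the methods add. They run from 3.13 to 15.36, with array medians from 7.39 to 7.51. Raw intensities were not used here, so nothing is known of signal over background, and the number of arrays limits the precision.

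Affymetrix controls (62 of 54675 probe sets) were left out. By the platform annotation 41091 of the tested probe sets carry 1 symbol, 1801 several and 11721 none, and 41037 were matched to the reference gene table by Entrez identifier with 0 symbols changed. A gene's value is that of its single-symbol probe set of highest mean. limma 3.58.1 (R 4.3.3) was fitted with 16 group means to all 48 arrays, with an intensity trend (32 residual degrees of freedom), and p-values were adjusted over all 54613 probe sets. The methods used a t-test at a p under 0.05, with Bonferroni correction in select cases, and 1.5-fold. That t-test was run as an alternative, with the p unadjusted and with Benjamini-Hochberg adjustment. On simulated data for the 24 h comparison (54613 probe sets), 88% of 100 changes of 1.6-fold and 100% of 50 changes each of 2-fold and 3-fold were recovered, with 2 wrong calls. The simulated noise was normal and independent between probe sets and arrays, so it held no shift shared across an array. The wrong calls therefore do not measure what such shifts add.

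Named with full values are the 12 largest called rises and falls. Named with fewer are called list members, up to 4 further members per list past the adjusted p, the 6 largest called differences each way per contrast and genes of interest to the study. The gene lists, markers and comparisons were chosen with earlier results of these data known, so lists carry counts and medians but no test. Alternatives were a dim filter, quantile normalization, median centring, normexp background subtraction, a fit to the arrays compared, variances without trend, other fold thresholds, Bonferroni adjustment, averaging all probe sets of a gene, a replicate block and each array left out in turn. Promoter stretches come from a RefSeq table of GRCh38.p14. Software was Python 3.11.15 with pandas 2.3.3, numpy 2.4.6 and, for the figures, matplotlib 3.10.9.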

Additional observations from a re-analysis of the deposited data

Results flagged for a closer look

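The responses below differed between times or clones by a contrast of limma at an adjusted p under 0.05 and at least 1.5-fold, and are the largest each way by a gene's brightest probe set. Between 24 h and 4 h in IRS-1 #10, the responses of IL6R (0.8874), AURKB (0.8631), ASNS (0.8235), SLC7A5 (0.8146), ESPL1 (0.779) and CDC45 (0.7649) were higher at 24 h on the log2 scale, and those of NANOS1 (-0.7517), THBS1 (-0.7302), RHOBTB1 (-0.7227), H4C8 (-0.7226), BAMBI (-0.6953) and AKR1C3 (-0.6862) were lower. Between IRS-1 #10 and IRS-1 #20 at 24 h, the responses of CCL2 (0.7773), UHRF1 (0.7169), KCNC1 (0.649), ZNF367 (0.6455), THBS1 (0.6374) and CCNE2 (0.6017) were higher in IRS-1 #10, and those of INHBE (-2.7226), GDF15 (-2.008), KLHDC7B (-1.476), CLGN (-1.1292), DDIT3 (-0.9678) and ERN1 (-0.8925) were lower. Between IRS-1 #10 and the mean of the IRS-2 clones at 24 h, the responses of CCL20 (1.1156), ASNS (0.8909), PMAIP1 (0.7364), CXCL10 (0.7189), PSAT1 (0.6469) and RAB39B (0.5959) were higher in IRS-1 #10, and those of SYTL5 (-0.6804), RUNDC3B (-0.6237), AKR1C3 (-0.6036) and RBP7 (-0.6005) were lower. Of these 34 differences 24 stayed called whichever single array was left out. Spread between clones is not part of their error.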

How the results depend on the processing

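The comparison at 24 h called 137 probe sets, and 128 to 175 when 1 array was left out. It called 68 (42 higher, 26 lower) after normexp background subtraction, 6 (4 and 2) at 2-fold and 4375 (1626 and 2749) without a fold threshold. By the methods' t-test with an unadjusted p it called 138 (69 and 69), of which 136 were among the 137. With Benjamini-Hochberg adjustment, which the methods do not name, the t-test called 53 (37 and 16). Median centring gave 54 higher and 82 lower, and quantile normalization 90 and 74. The contrast of 24 h with 4 h called 153, and 132 to 226 with 1 array left out, with 80 by normexp, 3 at 2-fold, 1385 without a fold threshold, and 78 each by Bonferroni adjustment and by the t-test adjusted. That with IRS-1 #20 called 73, and 63 to 104 with 1 array left out, with 36, 7, 571, 31 and 19 in the same order. That with the IRS-2 clones called 21, and 17 to 34 with 1 array left out, with 12, 3, 229, 11 and 13 in the same order, and 33 by the t-test with an unadjusted p.

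With the replicate letter as a block, 136, 154, 64 and 20 probe sets were called in these contrasts. Letters were not taken to pair the arrays, since deviations of same-lettered IGF-I and SFM arrays correlated at -0.14, -0.21 and -0.064. Of the 59 called genes 11 stayed called under every alternative, 28 were lost with normexp and 27 with the mean of probe sets. Direction changed in 0 of them, which for left-out arrays was fixed by the lack of overlap between their groups. Over 162 named genes, 2154 values kept direction and side of the threshold, 70 lost and 32 gained the call, and 12 turned. Those that turned were not called. IRS1 was at -0.0195 with the mean of probe sets and ACACA at 0.0032. IGF1R was at 0.0108 after quantile normalization and ranged from -0.072 to 0.028 with 1 array left out. CLGN ranged from -0.0707 to 0.0372 and ERN1 from -0.0381 to 0.0525 with 1 array left out, and ERN1 was at -0.0121 after median centring. Of the list medians, 15 values changed sign, in 7 lists with medians between -0.04 and 0.04. The cause of these shifts was not tested. Dim probe sets have larger errors, no signal over background was available, and 3 arrays a group of 1 clone limit all calls.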
